A study of Arabidopsis thaliana with 4 samples.

Results

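Abscisic acid is the hormone that holds seeds dormant, closes stomata and restrains seedling growth under water shortage. It is made from carotenoids, broken down by hydroxylases of the CYP707A family, and perceived by PYR/PYL receptors. The receptors, once bound to the hormone, inhibit the protein phosphatases of the PP2C type, which frees SnRK2 kinases to activate bZIP transcription factors of the ABF and ABI5 kind. The 46 genes described here cover that chain from synthesis to transcription, out of 27444 protein-coding genes on the nuclear chromosomes, and were taken from a fixed list of names. They comprise 9 synthesis genes, 4 breakdown genes, 14 receptors, 9 PP2C phosphatases, 3 kinases and 7 transcription factors.

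The measurements came from chromatin immunoprecipitation followed by sequencing (ChIP-seq), made to find potential targets of the CIN-type TCP transcription factor TCP4 in Arabidopsis thaliana seedlings. An anti-Myc antibody was used on seedlings labelled TCP4 overexpression (mTCP4) and on wild type (Col), and each genotype also had an input library made without antibody, giving 4 libraries with 1 per group. All seedlings were whole, 4 days old and dark-grown, after 3 days at 4 °C and 3 to 4 h of white light to start germination. The sources used here do not state the promoter of the transgene or the number of independent lines, and a peak list holds no expression values with which to check the tissue. With 1 library per group no value below has a replicate error.

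The authors listed 7470 summits for mTCP4 against Col, the positions of highest signal within peaks, on build TAIR10. Fold is the authors' own value at each summit, the ratio of the ChIP signal to the control level, and had a median of 3.43 over all summits. The bracketed bounds after each fold are 95% limits of counting error, from an exact Poisson treatment of the fragments there. The control level was held fixed, so the bounds leave out its error. They also leave out the choice of each summit as a position of highest signal. A gene was said to have a summit when one lay inside it or within 1000 bp of either end. The gene table gives no strand, so a gene's 2 ends are called its lower and higher end by coordinate, and upstream was not told apart from downstream.

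Of the 46 abscisic acid genes 18 had a summit (39.1%), against 19.7% of all protein-coding genes. The share differed among the roles. It was highest for hormone breakdown, with 3 of 4 CYP707A genes, and for the PP2C phosphatases, with 5 of 9. Receptors had a summit in 6 of 14 cases, kinases in 1 of 3, transcription factors in 2 of 7 and synthesis genes in 1 of 9. The synthesis share, 11.1%, lay below that of all protein-coding genes. No test of these shares was made, since the genes were chosen with earlier results of these data known, and groups of 3 to 14 genes give coarse percentages.

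**Figure D1:**
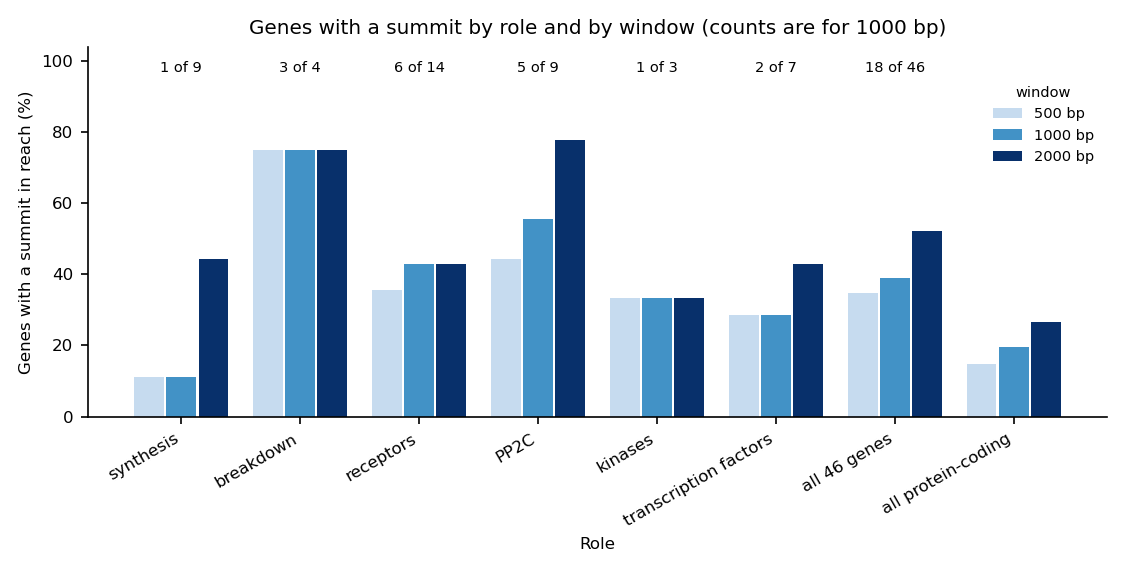
Bars give the percentage of genes in each role with a summit inside or within 500, 1000 or 2000 bp (x axis, role; y axis, percentage of genes), with counts above for 1000 bp and all protein-coding genes at the right. Breakdown genes stood at 75.0% in every window, while synthesis genes went from 11.1% at 1000 bp to 44.4% at 2000 bp.

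The 18 genes had 29 summits, none shared between members. Of these, 10 lay inside the gene and 19 outside it. A summit inside the gene occurred at 6 of the 46 members (13.0%) and at 6.75% of protein-coding genes. In all, 21 summits had no other protein-coding gene within 1000 bp. For 27 of the 29 summits the abscisic acid gene was the nearest protein-coding gene. Fragments at the summits ran from 50 to 227, with a median of 84. The folds lay between 1.97 and 11.0, and their median was 3.38, close to the 3.43 of the whole list. The highest fold per gene had a median of 3.87 over the 18 genes and 3.60 over all protein-coding genes with a summit.

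Within 1000 bp, hormone synthesis was the role with the fewest summits relative to its size. ABA2 (AT1G52340), the short-chain dehydrogenase that turns xanthoxin into abscisic aldehyde, was the 1 synthesis gene with a summit. Found within the gene at 19490982 on chromosome 1, 668 bp short of its higher end, the summit had a fold of 4.68 (4.00 to 5.44) from 165 fragments. None of the 5 NCED genes had a summit, where the share of all protein-coding genes was 19.7%. Counts this small were not tested against that share. The NCED genes encode the dioxygenases that cleave epoxycarotenoids, the step generally held to limit synthesis.

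For 3 of the NCED genes the nearest summit lay beyond the window, at 1115 to 2000 bp. The nearest was 1115 bp from NCED5 with a fold of 6.05 (5.0 to 7.26), and NCED5 was the protein-coding gene nearest to it. Another lay 1613 bp from NCED3, the NCED gene best known for its response to drought, with a fold of 2.42 (1.81 to 3.19). Bounds for the NCED5 summit lay above those for NCED3. The summit nearest to NCED9 was 2000 bp away and closer to GSTU19. NCED2 and NCED6 were remote from any summit, at 18789 and 26640 bp. ABA1, the zeaxanthin epoxidase, ABA3, which supplies the molybdenum cofactor, and AAO3, the aldehyde oxidase of the last step, had their nearest summits at 5340, 11244 and 10605 bp. With windows of 2000 bp 4 of 9 synthesis genes (44.4%) had a summit, NCED9 exactly at that limit, against 26.5% of all protein-coding genes.

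Summits were more frequent at the breakdown genes. CYP707A2 (AT2G29090), known for lowering abscisic acid in imbibed seeds, had 6 summits on chromosome 2. Among all protein-coding genes 4 (0.0146%), CYP707A2 included, had 6 or more. The summit with the highest fold lay inside the gene at 12497492, with a fold of 6.68 (5.60 to 7.91) from 132 fragments. A summit 162 bp from it, at 12497330, had a fold of 5.54 (4.58 to 6.65), and the intervals of this pair overlapped.

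A second pair of CYP707A2 summits lay 78 and 196 bp beyond the higher end, with folds of 4.94 (4.00 to 6.04) and 5.07 (4.12 to 6.18). Towards the lower end the folds were smaller. The summit inside the gene at 12495931 had a fold of 2.92 (2.27 to 3.70), and the one 674 bp beyond that end, at 12494152, had 3.31 (2.68 to 4.05). The intervals of these lower-end summits lay below those of both summits in the middle of the gene. Within each close pair the summits belong to 1 numbered peak and may share fragments, so they are not independent measurements.

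The other breakdown genes had fewer summits. CYP707A4 (AT3G19270) had one inside the gene, at 6674840 on chromosome 3, whose fold was 4.2 (3.34 to 5.22). Another, 197 bp beyond its lower end, had 2.72 (2.04 to 3.56). CYP707A1 (AT4G19230) had a single summit 170 bp beyond its lower end, at 10521089 on chromosome 4, also at 2.72 (2.04 to 3.56). These 2 equal values both come from 50 fragments over the lowest control level in the list, 12.9. With a window of 2000 bp the highest fold at CYP707A1 was 4.2, and without summits deep inside genes that at CYP707A4 was 2.72. At a −log10 q of at least 10 CYP707A1 had no summit, which left 2 of 4 breakdown genes, against 14.1% of protein-coding genes. CYP707A3 had no summit within 1000 bp, and the nearest lay 5827 bp away. In all 3 genes with a summit, at least 1 summit stood at that lowest control level.

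**Figure D2:**
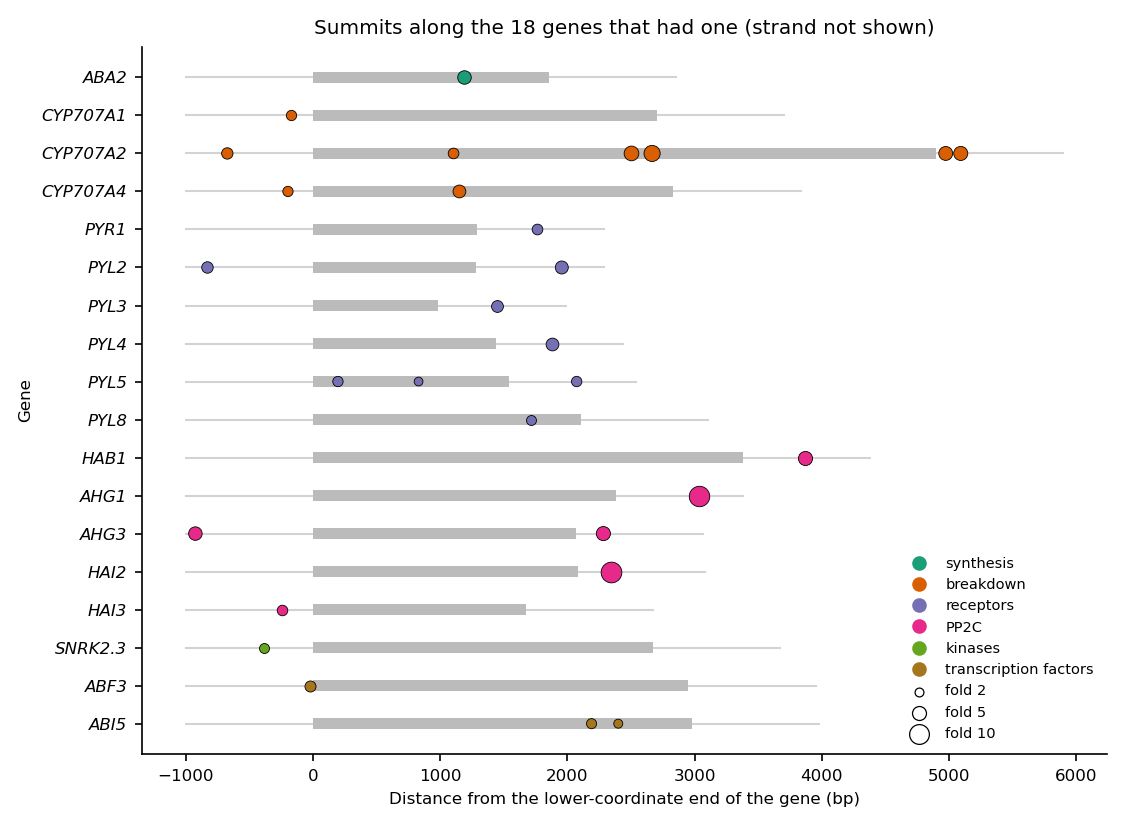
Each row is a gene drawn to scale as a grey bar, with the 1000 bp on either side as a thin line. The x axis is distance in bp from its lower end, and the area of each circle follows the fold of the summit. Of the 6 CYP707A2 summits 3 lie inside the gene and 3 outside it, and all 6 PP2C summits lie outside their genes.

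Among the receptors 6 of 14 genes had a summit, with modest folds. The highest was at PYL2 (AT2G26040), 672 bp beyond its higher end at 11096214 on chromosome 2, where fold was 4.31 (3.43 to 5.34). PYL4 (AT2G38310) had a fold of 4.17 (3.34 to 5.14) at 16051798 on the same chromosome, 442 bp beyond its higher end. PYR1 (AT4G17870), the receptor found through resistance to pyrabactin, had 2.93 (2.39 to 3.56) at 476 bp. These intervals all overlapped, that of PYR1 only at its upper end. Overlap by itself does not show that folds were equal, and the 3 receptors were not tested against each other.

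PYL5 (AT5G05440) had 3 summits on chromosome 5. Their folds were 2.74 (2.17 to 3.42) and 1.97 (1.54 to 2.48) inside the gene, and 2.77 (2.13 to 3.55) at 534 bp beyond its higher end. The value of 1.97 was among the lowest in the whole list, with 0.562% of summits below it. PYL8 (AT5G53160, listed as RCAR3), a receptor known for its role in roots, had 1 summit inside the gene with a fold of 2.54 (2.02 to 3.16).

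At 2 receptors a summit lay nearer to a neighbour. The PYL3 (AT1G73000) summit, with a fold of 3.58 (2.87 to 4.40), was 463 bp from PYL3 and 97 bp from the phosphatase gene PS2. A further PYL2 summit, 830 bp beyond the lower end and with a fold of 3.38 (2.71 to 4.17), lay inside AT2G26030. With summits assigned to the nearest gene alone, PYL3 was the 1 member to lose its summit, and 17 of 46 remained against 15.3% of protein-coding genes.

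The receptors fall into subfamilies. In the one of PYR1 and PYL1 to PYL3, which form dimers without the hormone, 3 of 4 genes had a summit. In that of PYL4 to PYL6 and PYL11 to PYL13 there were 2 of 6 (33.3%), and in that of PYL7 to PYL10 there was 1 of 4 (25.0%). The share of all protein-coding genes was 19.7%, and subfamilies of 4 or 6 genes give coarse percentages. The division into subfamilies was applied after the values had been seen. PYL1, PYL6, PYL7, PYL9, PYL10, PYL11, PYL12 and PYL13 had no summit, and their nearest lay 3042 to 23601 bp away. PYL11 and PYL12, which are neighbours, had the same nearest summit, inside DOG1.

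The PP2C phosphatases, which switch off the SnRK2 kinases when the hormone is low, held the highest folds of the pathway. HAI2 (AT1G07430) had a summit 260 bp beyond its higher end, at 2283088 on chromosome 1, where 220 fragments gave a fold of 11.0 (9.62 to 12.6). AHG1 (AT5G51760), a phosphatase of seeds that escapes receptor inhibition, had one 652 bp beyond its higher end, at 21029840 on chromosome 5, where 217 fragments gave 10.7 (9.36 to 12.2). They ranked 39 and 48 by fold among the 7470 summits. Neither had another protein-coding gene within 1000 bp of the summit.

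The intervals of these 2 folds overlapped each other and lay above the interval of every other summit at the 46 genes, of which the highest reached 7.91 at CYP707A2. Genes with a fold of 10 or more made up 0.23% of all protein-coding genes, and 2 of the 46 members. At 5 or more the share was 4.88% of protein-coding genes, and 5 of the 46 members reached it. Besides HAI2 and AHG1 these were CYP707A2, HAB1 and AHG3.

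**Figure D3:**
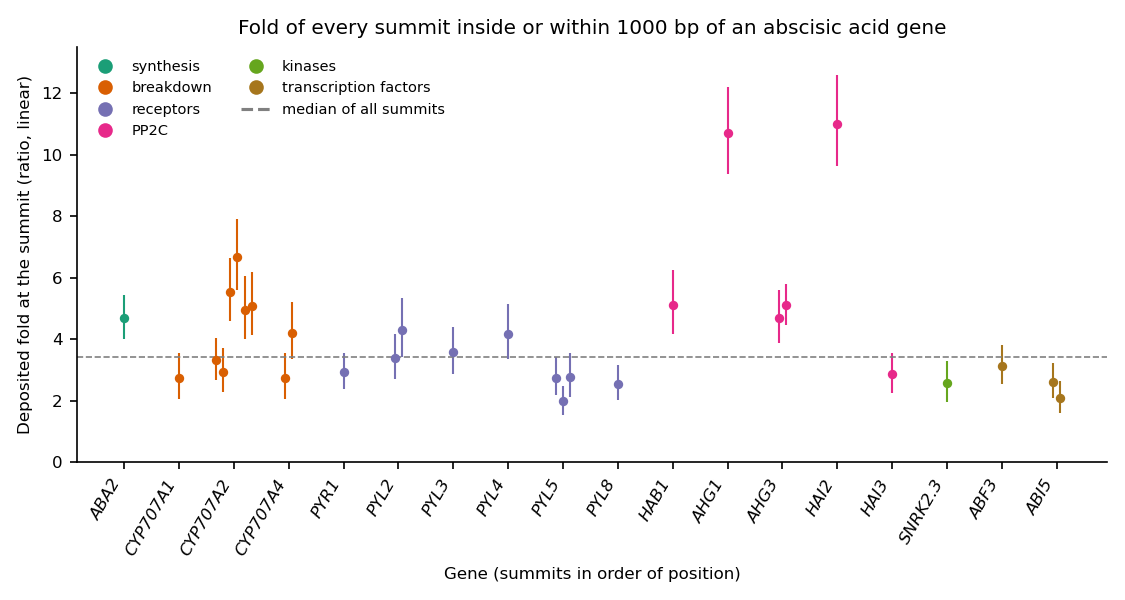
Points are the folds of the 29 summits (y axis, linear ratio) by gene (x axis), with exact 95% Poisson intervals of counting error as bars and the median of all summits, 3.43, as a dashed line. HAI2 and AHG1 stand at 11.0 and 10.7, above every other interval.

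AHG3 (AT3G11410, listed as PP2CA) had a summit on each side. That at 3586065 on chromosome 3, 215 bp beyond the higher end, had a fold of 5.10 (4.46 to 5.80) from 227 fragments, the most at any summit of these genes. Its control level, 32.0, was also the highest among them. The other, 925 bp beyond the lower end, had 4.67 (3.88 to 5.58). HAB1 (AT1G72770) had a fold of 5.12 (4.16 to 6.24) at 492 bp, and HAI3 (AT2G29380) one of 2.85 (2.26 to 3.56) at 241 bp.

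No PP2C summit lay inside its gene. Within the family, 4 of the 5 genes AHG1, AHG3 and HAI1 to HAI3 had a summit (80.0%). So did 1 of the 4 genes ABI1, ABI2, HAB1 and HAB2 (25.0%), beside 19.7% of all protein-coding genes. This division by sequence clade was applied after the values had been seen. ABI1 and HAI1 came just short of the window. The summit nearest to ABI1, the phosphatase of the classical insensitive mutant, was 1174 bp away with a fold of 4.31 (3.51 to 5.24) and closer to the resistance gene RPS2. That nearest to HAI1 was 1456 bp away with 4.73 (3.95 to 5.62), and HAI1 was the gene nearest to it. ABI2 and HAB2 had their nearest summits at 4121 and 17021 bp. With windows of 2000 bp, which brought in ABI1 and HAI1, 7 of 9 phosphatases had a summit, against 26.5% of protein-coding genes. None of the 5 PP2C genes kept one when only summits at the lowest control level were used, as against 4 of the 46 members and 3.17% of protein-coding genes. That setting is narrow. The control levels at HAB1, HAI2 and AHG1 were 13.0, 13.8 and 14.0, little above the lowest of 12.9, and those at HAI3 and AHG3 were 19.0 or less and up to 32.0. The CYP707A2 summit with the highest fold stood at 13.7 and was left out too.

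At the member kinases and transcription factors with a summit, folds were below the median of the list, 3.43. SNRK2.3 (AT5G66880), a kinase that acts with SNRK2.2 in seeds and roots, had 1 summit 382 bp beyond its lower end, at 26709920 on chromosome 5, where fold was 2.56 (1.95 to 3.30). OST1, the kinase of stomatal closure, and SNRK2.2 had none within 1000 bp, the nearest lying 2479 and 5867 bp away.

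Of the transcription factors, ABF3 (AT4G34000), a bZIP factor of vegetative responses, had a summit 23 bp beyond its lower end, at 16295311 on chromosome 4, where fold was 3.13 (2.53 to 3.82). ABI5 (AT2G36270), the bZIP factor that arrests young seedlings, had 2 summits inside the gene on chromosome 2, 210 bp apart, with folds of 2.61 (2.09 to 3.22) and 2.07 (1.59 to 2.64). All 3 folds were below the median of the list. Over all roles, the upper 50% of summits by fold left 10 of the 46 members and 10.7% of protein-coding genes.

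The summit nearest to ABF2 was 1239 bp away, with a fold of 4.03 (3.40 to 4.75), and closer to AT1G45230. The one nearest to ABF4 was 2026 bp away with 5.26 (4.37 to 6.28), and closer to FUT11, at 987 bp. ABF1, ABI3 and ABI4, of which the last 2 act mainly in seeds, lay 15488 to 32824 bp from any summit.

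The 1000 bp limit fell in a gap in these distances. The members just inside it were AHG1 and PYL2 at 652 and 672 bp, and those just outside were NCED5, ABI1 and ABF2 at 1115, 1174 and 1239 bp. The share of members with a summit was 34.8% at 500 bp and 52.2% at 2000 bp, against 14.8% and 26.5% of all protein-coding genes. At 500 bp the members PYL2 and AHG1 dropped out, the latter with its fold of 10.7. Without summits deeper than 200 bp inside a gene 15 of 46 members were left against 17.4%, and at a −log10 q of at least 10 there were 12 against 14.1%. Whole deposited intervals, nearly all 10000 bp long, touched 29 of 46 members against 43.9% of protein-coding genes.

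**Figure D4:**
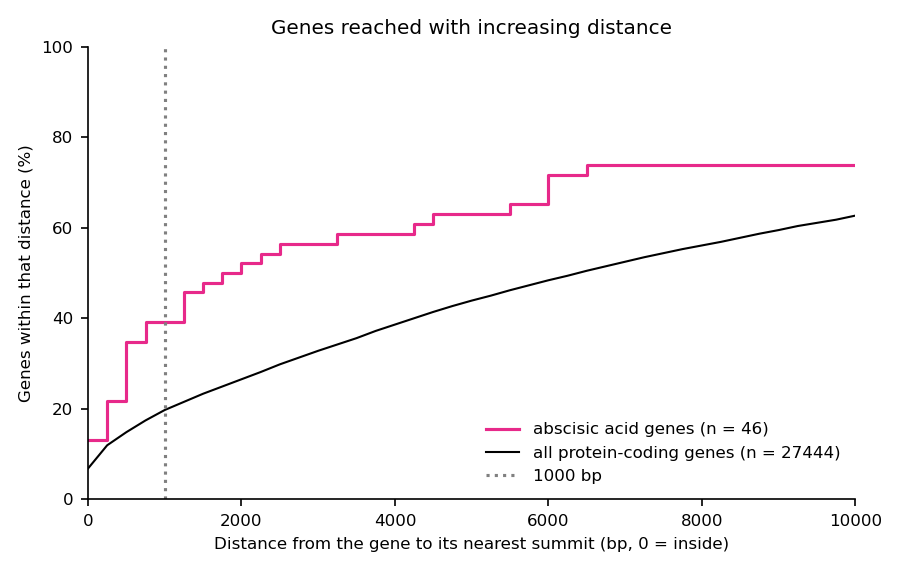
Curves give the percentage of genes (y axis) whose nearest summit lies within a given distance in bp (x axis, read every 250 bp, 0 for a summit inside), for the 46 abscisic acid genes and for all 27444 protein-coding genes. At 1000 bp, the dotted line, the curves stand at 39.1% and 19.7%, and at 10000 bp at 73.9% and 62.7%.

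Gene length, which the list did not choose on, moved with the share over all protein-coding genes. The 46 genes had a median length of 2388 bp against 2078 bp for all protein-coding genes. The share of protein-coding genes with a summit was 13.1% up to 1323 bp, 19.4% from there to 2078 bp, 21.9% to 3030 bp and 24.2% above. The members with a summit were 3 of 7, 5 of 12, 8 of 18 and 2 of 9 in those ranges. Groups of 7 to 18 members give coarse shares, and the lowest, 2 of 9 among the longest genes, stood beside 24.2% of protein-coding genes of that length. The part of length in the result was not tested.

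Genes outside the 46 that were grouped with abscisic acid biology, in 7 lists, had a summit in 23 of 48 cases (47.9%), against 19.7% of all protein-coding genes. These lists too were chosen with earlier results of these data known, so their share is no independent support and was not tested. Transcription factors linked to the hormone led with 8 of 12, among them RAV1 with a fold of 7.43 (6.26 to 8.76), the homeobox gene HB6 with 5.47 (4.47 to 6.63), the bZIP gene EEL with 5.28 (4.56 to 6.07) and WRKY40 with 4.08 (3.45 to 4.78). Channels and oxidases of guard cell signalling had 3 of 5, with RBOHF at 4.99 (4.05 to 6.10), RBOHD at 4.71 (4.00 to 5.51) and the anion channel gene SLAH3 at 4.43 (3.74 to 5.21). The central guard cell anion channel gene SLAC1 and the potassium channel gene KAT1 had none.

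SnRK2 kinases other than the 3 members, listed by family and not by response to the hormone, had 4 of 7. Their folds were 4.6 (3.87 to 5.43) at SNRK2.1, 3.43 (2.76 to 4.21) at SNRK2.5, 2.72 (2.04 to 3.56) at SNRK2.7 and 2.56 (1.90 to 3.38) at SNRK2.9. Genes induced by the hormone had 4 of 9, with KIN1 highest at 8.54 (7.38 to 9.83), then EM6 at 5.13 (4.23 to 6.17), RD29A at 3.83 (3.08 to 4.71) and RD26 at 3.76 (3.10 to 4.52). The KIN1 summit lay 872 bp from the gene. Transport genes had 2 of 6, namely ABCG30 at 5.13 (4.2 to 6.20) and the exporter gene ABCG25 at 3.01 (2.32 to 3.86).

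Precursor and conjugation genes had the lowest shares of the 7 lists, 20.0% and 25.0%, near the 19.7% of all protein-coding genes. Of the genes listed as carotenoid precursors 1 of 5 had a summit, the cyclase gene LUT2 at 5.77 (4.95 to 6.70). LUT2 serves the lutein branch and not the one leading to abscisic acid, and PSY, ABA4, PDS3 and LYC had no summit. Of the genes of conjugation and release 1 of 4 had one, the glucosidase gene BGLU18 at 4.04 (3.19 to 5.05). PSY, the phytoene synthase at the head of the carotenoid pathway, had its nearest summit at 1150 bp.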

How the data were processed

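One ChIP-seq peak list, mTCP4 against Col, was analysed, with 1 library per group. Reads were aligned with Bowtie 0.12.9 and peaks called with MACS2 2.1.1 on TAIR10, per the submitters' processing notes. The sources used here give neither the calling threshold nor the role of the inputs. The deposited columns, per the file headers, are a pileup (a signal), a fold (a linear ratio), and −log10 of p-values and q-values. Summit positions were used as listed.

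The control level was recovered from pileup and fold with a pseudocount of 1. All pileups were whole multiples of 0.737 within 0.01, taken as 1 fragment, and gave exact 95% Poisson intervals (scipy 1.17.1). The control level was held fixed in these intervals. Library totals were not analysed here.

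Genes came from a RefSeq table of assembly TAIR10.1, without strand. All 46 names matched, 43 by symbol and 3 by synonym, and all 48 others matched. Over shifts of up to 1000 bp the share of summits inside genes was lowest, 29.6%, without shift. Linking was tested on simulated data. Members and lists were chosen with earlier results of these data known. Every member was named, with up to 4 genes per other list by fold. Alternatives covered windows, thresholds, control level, nearest genes and whole intervals. No sequence was used, so the planned motif description was not run.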

Additional observations from a re-analysis of the deposited data

How the results depend on the processing

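The count of members with a summit, 18 as reported, was 12 to 24 with windows of 500 or 2000 bp, summits deep inside genes left out, a −log10 q of at least 10, nearest genes only and 1 summit per numbered peak. It stayed above the share of all protein-coding genes in every alternative run, with a ratio of shares from 1.44 with whole intervals to 2.74 with the lowest control level. With windows of 2000 bp synthesis genes numbered 4. Without summits deep inside genes there were 0 synthesis genes and 1 transcription factor, and at the stricter q 0 kinases and 1 transcription factor. The upper 50% of summits by fold left 2947 protein-coding genes and 10 members, with 3 receptors, 0 kinases and 0 transcription factors. Both there and at the stricter q, breakdown genes numbered 2 of 4 and PP2C genes 4 of 9, beside 10.7% and 14.1% of protein-coding genes. The summits at the lowest control level left 870 protein-coding genes and 4 members, CYP707A1, CYP707A2, CYP707A4 and PYL2, with 1 receptor and 0 synthesis, 0 PP2C, 0 kinase and 0 transcription factor genes. Whole intervals gave 12041 protein-coding genes and 29 members, with 4 synthesis, 8 PP2C, 2 kinase and 4 transcription factor genes. Restricted lists hold fewer summits by construction. For the median summit, counting error reached from 19.7% below to 23.1% above the fold. No paired analysis was possible because each group has 1 library, and no library could be left out.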

Other observations

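Most members without a summit had their nearest one closer to another gene, the exceptions being NCED3, NCED5 and HAI1. The median distance to the nearest summit was 1806 bp over all 46 members and 6403 bp over all protein-coding genes, those with a summit included. The members named below were chosen after the values were seen. The summit nearest to PYL11 and PYL12, at 14207 and 16615 bp, lay inside DOG1, a regulator of seed dormancy that acts with AHG1, with a fold of 3.88 (3.07 to 4.84). The summit nearest to ABI4 was 15488 bp from it but 391 bp from EM6, an embryo protein gene, with a fold of 4.77 (3.88 to 5.80). The one nearest to PYL9, 3042 bp away and with a fold of 6.98 (6.11 to 7.95), lay inside the centromeric histone gene HTR12, and the one nearest to PYL7, 11098 bp away and with 7.56 (6.48 to 8.76), lay 786 bp from CPL3.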
